A study of Homo sapiens with 6 samples.

Results

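Claudins and their partners at the tight junction were followed through 3 cancer cell lines, each given the telomerase inhibitor imetelstat or vehicle. The genes were chosen by name. They were the claudins CLDN1, CLDN2, CLDN3, CLDN4, CLDN7 and CLDN12 together with OCLN, TJP1 and F11R, 9 genes in all. Of these, 8 were among the 20046 genes with a named probe on the array, and 6 were among the 12187 genes detected on at least 1 array. F11R, which encodes the junctional adhesion molecule JAM-A, had no probe named for it in the annotation used and was not analysed here. CLDN2 and OCLN had named probes but were not detected on any array.

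OVCAR5 is described in the study as an ovarian cancer line, and COLO205 and HCT116 as colon cancer lines. Cells of each line were kept for 2 weeks with imetelstat, a lipid-linked oligonucleotide that pairs with the template of telomerase RNA, or with vehicle, and each of the 6 combinations was hybridised to 1 array. The labels call the control agent vehicle, whereas the methods name a mismatch oligonucleotide and the outline of the array experiment shows untreated cells, so what the control cells received is not settled. OVCAR5 and COLO205 were grown in RPMI1640 and HCT116 in DMEM, so that the HCT116 line and its medium cannot be told apart. No genotype beyond the name of the line is given, and with 1 array per line and treatment there is no replicate of any single value.

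A probe was called detected at a detection p-value below 0.01, a value that sets each probe against negative control beads. By this limit 15627 to 17276 probes were detected per array, and the mean signal before scaling was 359.8 to 487.5, lowest on the COLO205 imetelstat array. All 5 listed epithelial markers, EPCAM, KRT8, KRT18, KRT19 and CDH1, were detected on all 6 arrays, whereas 5 of 6 fibroblast markers, 4 of 5 endothelial markers and the leukocyte markers PTPRC and CD3E were detected on none. The exceptions were COL1A1, near the detection limit on 5 arrays, CD68 on all 6, and CD14 and PECAM1 on both OVCAR5 arrays alone. The arrays labelled COLO205 stood close to those labelled HCT116, with Pearson's r of 0.976 to 0.987 across the detected probes, against 0.886 to 0.893 in pairs with an OVCAR5 array. Probes are not independent replicates in these correlations. Of 8 listed colon epithelium markers, 4 and 6 were detected on the imetelstat and vehicle arrays of OVCAR5, and 1, CDX2, on each array labelled COLO205 or HCT116. KRT20, CEACAM5 and CDH17 were thus detected on the OVCAR5 arrays and not on the 4 others. Of 7 listed Muellerian or ovarian markers, 2 and 3 were detected on the imetelstat and vehicle arrays of OVCAR5, and 2 or 3 on each other array. MUC16 read 9.09 and 9.61 on these OVCAR5 arrays and 6.91 to 7.23 elsewhere, and WT1, ESR1 and SOX17 were detected on none. The arrays are therefore called by their labels below, and the comparison of OVCAR5 with HCT116, the effect of imetelstat across lines and the likeness of patterns are also given without COLO205.

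Tight junctions are the belt of contacts that seals the space between epithelial cells near their apical side. Claudins are membrane proteins that form the strands of the belt and set which ions and water pass between cells, some as barriers and some as pores. Occludin and the junctional adhesion molecules lie beside them, and the zonula occludens scaffolds tie the claudins to the actin skeleton from inside the cell. Epithelial cancers often keep or raise some claudins and lose others.

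Among the claudins, CLDN1 separated the lines most. CLDN1, a barrier-forming claudin best known from the epidermis, had log2 signals of 12.79 on the imetelstat and 12.69 on the vehicle array of OVCAR5. On the other arrays its probe gave 6.75 and 6.69 in COLO205 and 6.72 and 6.49 in HCT116, again with imetelstat given before vehicle, and was not detected on any of these 4. Thus CLDN1 was expressed in OVCAR5 and at background in both lines labelled colon. Its OVCAR5 mean was at least 54.3-fold higher than in HCT116 and at least 51.8-fold higher than in COLO205. Such a bound sets the bright mean against the lowest signal of any detected probe on each dim array, or the dim probe's own signal where that was higher. The range of CLDN1 over the 6 arrays, 6.31 on the log2 scale, was the 13th largest of 12187 genes.

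CLDN3, a barrier claudin widely present in gut and glandular epithelium, was detected on all 6 arrays. Its log2 signal was 9.66 with imetelstat and 9.40 with vehicle in OVCAR5. It was 7.31 and 7.86 in COLO205, and 8.34 and 7.70 in HCT116, in the same order of treatments. OVCAR5 lay above both other lines, whose 4 values overlapped and ran in opposite order by treatment. With a range of 2.35 on the log2 scale CLDN3 varied less than CLDN1 and more than the other detected members, and 3.56% of genes had a larger range.

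CLDN4, which like CLDN3 is a receptor for Clostridium perfringens enterotoxin and whose gene lies on the same chromosome, was close to the detection limit in these cells. Its log2 signal was 7.19 with imetelstat and 7.54 with vehicle in OVCAR5, both detected. In COLO205 it was 7.24 with imetelstat, which was detected, and 6.94 with vehicle, which was not. In HCT116 it was 6.92 and 6.78, neither of them detected. The COLO205 imetelstat array therefore reached the OVCAR5 range, and the HCT116 arrays lay below it.

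CLDN7 and CLDN12 were detected on all 6 arrays. CLDN7, a claudin found along the basolateral membrane as well as at the junction, had log2 signals of 11.71 and 11.92 in OVCAR5 and of 11.04 and 11.02 in HCT116, each time imetelstat before vehicle. In COLO205 it read 10.83 with imetelstat, a difference of −0.18 from the vehicle array. Both OVCAR5 arrays were highest, and both COLO205 arrays lay just below those of HCT116. CLDN12, a claudin that lacks the usual tail for binding zonula occludens proteins and takes part in calcium passage across the gut wall, had 10.66 and 10.27 in OVCAR5, 9.60 and 9.95 in COLO205 and 9.73 and 9.85 in HCT116. Here too both OVCAR5 arrays were the highest, and the values of the other lines overlapped.

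TJP1 encodes ZO-1, the scaffold that gathers claudins at the junction. Its brighter probe, with imetelstat before vehicle, gave 10.34 and 10.37 in OVCAR5, 9.43 and 9.59 in COLO205 and 9.31 and 9.74 in HCT116. The other TJP1 probe gave 9.26 and 9.13, 8.61 and 8.75, and 8.33 and 8.73 for the same arrays. Both probes placed the 2 OVCAR5 arrays above the other 4, and both were lowest on the HCT116 imetelstat array.

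The remaining members had no level to order. CLDN2, the pore-forming claudin of leaky epithelia, gave log2 signals of 6.54 to 6.79 over the 6 arrays, with a lowest detection p of 0.174. The probes of OCLN, which encodes occludin, gave 6.60 to 6.81 and 6.45 to 6.64, with a lowest detection p of 0.178. The dimmest detected probe of an array lay between 6.97 and 7.06, so these signals are those of undetected probes and do not show that the transcripts were absent. The plot of signals by array shows the detected members and these undetected ones on 1 scale.

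**Figure D1:**
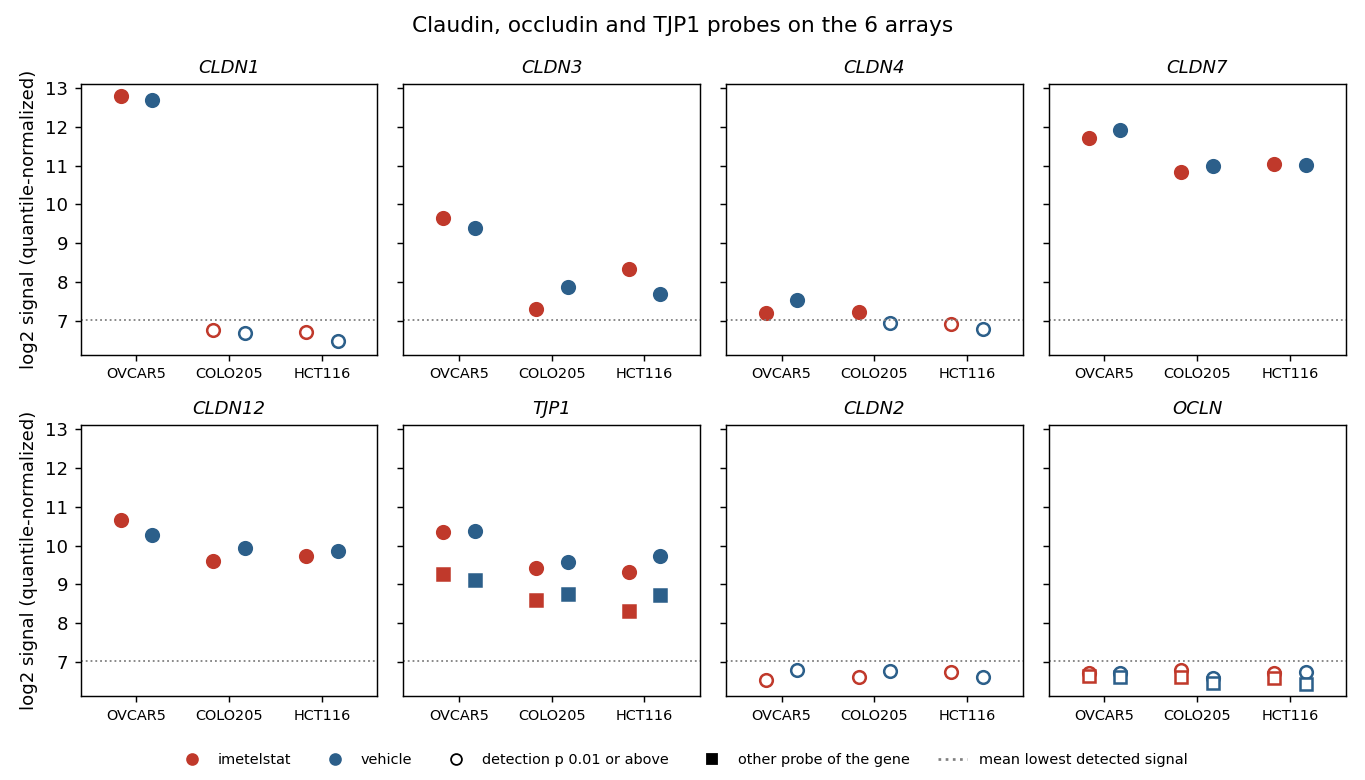
Log2 signal (vertical axis, quantile-normalized) of each named probe on the 6 arrays, grouped by line, with imetelstat in red left of vehicle in blue. Open symbols mark arrays on which the probe was not detected, squares mark the other probe of a gene, and the dotted line is the mean over arrays of the lowest detected signal. CLDN1 sits at 12.69 to 12.79 in OVCAR5 and at background elsewhere, and CLDN2 and OCLN are open on all arrays.

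The level in each line was compared with limma over all 12187 genes, with treatment as an additive term and Benjamini-Hochberg adjustment at 0.05. OVCAR5 was higher than HCT116 for 6 of the 6 detected members. Over all genes 41.0% were called in that comparison and 19.3% were called higher in OVCAR5, so that a single call is common. CLDN1 was among the 6 through the OVCAR5 arrays alone, so a call for it could only be higher there. Its call is therefore no support for the count. In RNA of a whole culture, more cells with a transcript and more transcript per cell cannot be told apart. Some markers moved with the same contrast. Of the 8 colon epithelium markers, KRT20, CEACAM5 and CDH17 were called higher in OVCAR5 than in HCT116 and CDX2, VIL1 and LGALS4 were not called, with a summed linear signal over the list of 3504 and 3805 on the OVCAR5 arrays against 1042 to 1056 on the other 4. Of the 7 Muellerian or ovarian markers, MUC16 was called higher than in HCT116, at least 5.17-fold, and PAX8, EMX2 and MSLN were not called. That list summed to 2955 and 4209 on the OVCAR5 arrays against 1663 to 2708. Of the 5 epithelial markers 4 were called higher, and the list summed to 48301 and 46043 on the OVCAR5 arrays against 28830 to 33603. CD14 was at least 4.49-fold and PECAM1 at least 1.83-fold higher than in HCT116, while the leukocyte list summed to 2156 and 1530 against 1086 to 2712 and the endothelial list to 700 and 597 against 537 to 562. All these list sums take the brightest probe of every gene with a named probe, detected or not, and so hold background signal. KRT20, CEACAM5, CDH17, VIL1, LGALS4, CD14 and PECAM1 were detected in OVCAR5 alone, so a call for them could only be higher there. The part of these markers in the member differences was not tested. The spread in this fit comes from the way the 2 arrays of a line differ between lines, which holds any difference in response to treatment. Each line is 1 culture per treatment, so the p-values do not measure the spread between cultures.

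CLDN1 differed by 6.14 (SE 0.148, adjusted p = 1.89e-09) between OVCAR5 and HCT116 on the log2 scale, a fitted value that rests on undetected signals in HCT116. CLDN3 was 2.85-fold higher in OVCAR5, a log2 difference of 1.51 (95% interval 0.98 to 2.04, adjusted p = 0.000579). TJP1 followed with 0.83 (0.48 to 1.18, adjusted p = 0.00187) and CLDN7 with 0.79 (0.46 to 1.12, adjusted p = 0.00187). These differences were all larger than the spread left after line and treatment. CLDN12 differed by 0.67 (0.25 to 1.08, adjusted p = 0.0154) and CLDN4 by 0.51 (0.12 to 0.91, adjusted p = 0.0407). CLDN4 was not detected in HCT116, which makes its OVCAR5 level at least 1.31-fold higher. Both of these smaller calls were lost under some other processing, CLDN4 with median scaling (adjusted p = 0.0683) and CLDN12 with normexp background correction (adjusted p = 0.0599).

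OVCAR5 was higher than COLO205 for 5 of the 6, against 41.9% of all genes called in either direction and 19.6% called higher. CLDN1 again counts among them through the OVCAR5 arrays alone. The differences were 6.02 for CLDN1 (adjusted p = 1.62e-09), 1.94 for CLDN3 (95% interval 1.41 to 2.47, adjusted p = 0.000106) and 0.90 for CLDN7 (0.57 to 1.24, adjusted p = 0.000786). CLDN3 was thus 3.84-fold higher in OVCAR5. TJP1 differed by 0.84 (0.49 to 1.20, adjusted p = 0.00165) and CLDN12 by 0.68 (0.27 to 1.10, adjusted p = 0.0134), while CLDN4 differed by 0.27 (−0.12 to 0.67, adjusted p = 0.25). CLDN4 was the exception among the 6, and its interval spans no difference as well as one of the size seen against HCT116. Without the COLO205 arrays, 6 of the 6 members were again called higher in OVCAR5 than in HCT116, with adjusted p of 0.0233 for CLDN4 and lower for the rest. Over all genes 5419 were called in that fit in either direction, against 5000 with all arrays. CLDN1 and CLDN4 were detected in OVCAR5 alone on the arrays left, so their calls are no support for the count.

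Between the lines labelled colon, 0 of the 6 members were called, against 1.01% of all genes, which is 123 genes. The widest difference was that of CLDN3, −0.43 for COLO205 minus HCT116 (95% interval −0.96 to 0.10, adjusted p = 0.557). CLDN7, CLDN12 and TJP1 differed by −0.12, −0.02 and −0.01, with intervals inside −0.45 and 0.40. CLDN1 was below detection in both lines, so no order is given for it, and CLDN4 was detected on 1 of the 4 arrays. The plot of line differences sets the 3 comparisons side by side, which share arrays and are not independent of each other.

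**Figure D2:**
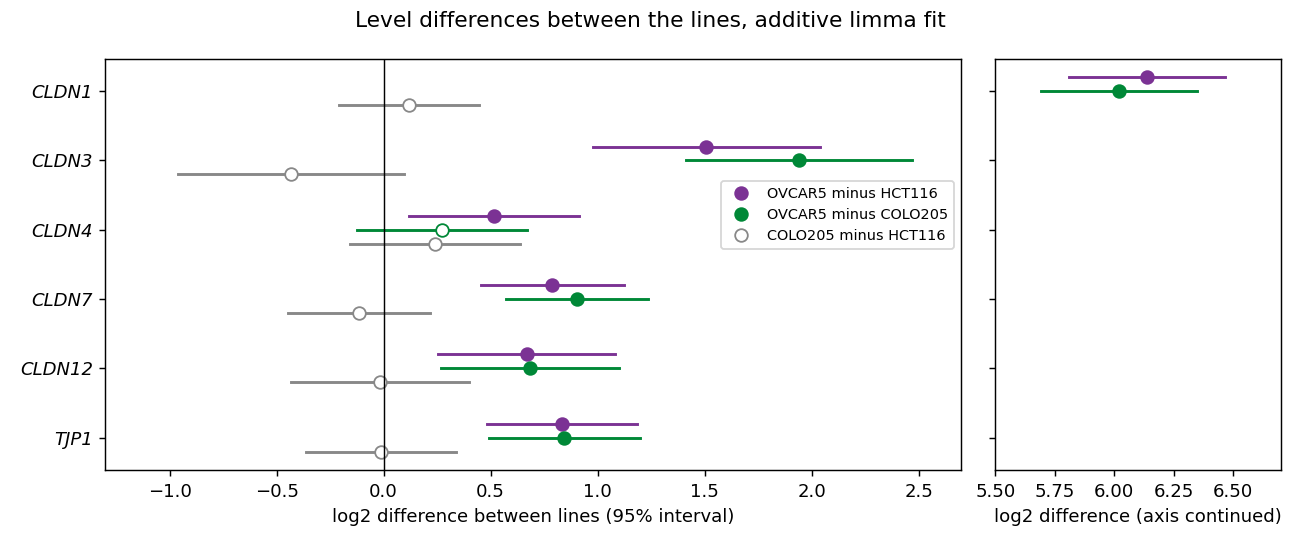
Log2 difference in level between lines (horizontal axis, continued in the right panel) for the 6 detected members, from the additive limma fit over 6 arrays. Points are estimates, bars are 95% intervals and filled points passed adjusted p of 0.05. OVCAR5 differences lie above 0 for all 6 genes, whereas the COLO205 minus HCT116 points are open and lie between −0.43 and 0.24.

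The 250 bases before the RefSeq transcription starts of the members were also read (GRCh38.p14). All 8 members with a named probe had such windows, 14 in all because several have more than 1 start. They were searched on both strands for CAGGTG, the E-box that the SNAI and ZEB repressors of epithelial genes recognise, for the AP-1 motif TGANTCA and for the grainyhead motif AACCNGTT. These motifs do not overlap in the windows printed. The windows of CLDN1 and CLDN3 are shown because these genes differed most between lines, that of CLDN4 because it holds AP-1 matches, and the downstream window of CLDN7 because it holds the most E-boxes. Capitals mark motif matches.
CLDN1, chr3:190322447-190322696, minus strand: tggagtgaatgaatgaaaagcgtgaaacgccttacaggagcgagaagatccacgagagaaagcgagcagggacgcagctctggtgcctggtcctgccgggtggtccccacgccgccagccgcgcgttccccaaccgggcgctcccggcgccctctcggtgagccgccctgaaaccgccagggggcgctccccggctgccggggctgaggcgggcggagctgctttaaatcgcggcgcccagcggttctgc
CLDN3, chr7:73770271-73770520, minus strand: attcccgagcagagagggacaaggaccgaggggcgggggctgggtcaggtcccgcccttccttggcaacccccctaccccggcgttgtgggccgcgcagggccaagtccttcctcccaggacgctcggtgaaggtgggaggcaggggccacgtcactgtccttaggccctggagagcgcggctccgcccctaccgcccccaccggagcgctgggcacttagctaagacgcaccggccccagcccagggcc
CLDN4, chr7:73830746-73830995, plus strand: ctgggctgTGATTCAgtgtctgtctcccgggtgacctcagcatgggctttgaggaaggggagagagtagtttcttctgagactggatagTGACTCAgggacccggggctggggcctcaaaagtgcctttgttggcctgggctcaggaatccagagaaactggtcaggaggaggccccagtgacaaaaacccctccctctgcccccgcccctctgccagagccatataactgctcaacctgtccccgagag
CLDN7, chr17:7262479-7262728, minus strand: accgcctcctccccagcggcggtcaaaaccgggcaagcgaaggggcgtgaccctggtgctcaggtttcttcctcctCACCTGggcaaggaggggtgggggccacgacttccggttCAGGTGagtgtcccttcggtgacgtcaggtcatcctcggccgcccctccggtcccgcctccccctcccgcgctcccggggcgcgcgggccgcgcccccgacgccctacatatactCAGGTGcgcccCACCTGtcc

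The CLDN7 window held 4 matches to the E-box, and 1 match was found in each OCLN window and in 1 of the 4 TJP1 windows. In all 4 windows of 3 members held the E-box, a motif present in 17.5% of 35116 such windows of all genes. AP-1 matches were found in 2 windows, 2 of them in CLDN4 and 1 in a CLDN2 window, against 6.57% of all windows, and no member window held the grainyhead motif, found in 1.49% of all. Base composition differed as well. The CLDN1 window had 28 CpG dinucleotides at 68.8% GC and the CLDN3 window 19 at 71.6% GC, while that of CLDN4 had 4 at 58.8% GC, against medians of 11 and 58.0% over all windows. The windows of CLDN1 and CLDN3 held none of the 3 motifs. Both genes had their highest signal in OVCAR5, as did CLDN4 and CLDN7, whose windows shown held matches. The part of the motifs in the line differences was not tested. These counts describe letters in a window and not binding.

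Imetelstat was then set against vehicle. Across the 3 lines, with the line as a block, limma called 0 of the 6 members and 0.00% of the 12187 genes, and 329 genes had an unadjusted p below 0.05. The widest member difference was that of TJP1, −0.20 on the log2 scale (SE 0.129, adjusted p = 1). Its brighter probe, used here, was below 0 in all 3 lines, whereas its other probe was at 0.14 in OVCAR5. The other members had CLDN1 at 0.13, CLDN3 at 0.12, CLDN4 at 0.03, CLDN7 at −0.12 and CLDN12 at −0.03, each with an adjusted p of 1. The 95% intervals reached as far as −0.49 for TJP1 and 0.55 for CLDN3, so that common changes of that size are not excluded by 3 pairs. Without the COLO205 pair 0 members were again called, with CLDN3 at 0.45 (adjusted p = 0.929) and 3 genes called in all.

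Within a line, 1 array stood against 1 array, so genes were judged by size and no p-value was computed. None of the members measured in a line reached 2-fold in HCT116, COLO205 or OVCAR5, where 0.827%, 0.297% and 0.598% of the genes detected in that line did. To show the noise of single arrays, each log2 ratio is set beside the scatter of the 500 genes nearest to it in signal in the same line, given as their scaled median absolute deviation. Replicate error cannot be had from 2 arrays, and the scatter does not stand for it.

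CLDN3 had the widest ratio among the members measured in HCT116 and in COLO205, with opposite signs. In HCT116 its log2 signal was 8.34 with imetelstat and 7.70 with vehicle, a ratio of 0.64 beside a scatter of 0.228, which ranked 101st from the highest of the 11010 genes detected in that line. In the arrays labelled COLO205 it was 7.31 with imetelstat and 7.86 with vehicle, a ratio of −0.55 beside a scatter of 0.249. In OVCAR5 it was 9.66 with imetelstat and 9.40 with vehicle, a ratio of 0.26 beside a scatter of 0.236. The sign thus split HCT116 and OVCAR5 from COLO205. Over the 10061 genes detected in both HCT116 and COLO205, 22 had a log2 ratio of at least 0.5 in HCT116 and at most −0.5 in COLO205, and 34 the reverse. With normexp background correction the ratio of CLDN3 widened to 0.97 in HCT116 and −1.03 in COLO205.

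TJP1 had the lowest ratio among the members in HCT116, where its brighter probe read 9.31 with imetelstat and 9.74 with vehicle, a ratio of −0.43 beside a scatter of 0.262. The other probe gave −0.41 there. In COLO205 the probes gave −0.15 and −0.13, the brighter one −0.52 with median scaling, and in OVCAR5 −0.02 and 0.14. The lower TJP1 signal with imetelstat was therefore seen on both probes in HCT116, lay within the scatter in COLO205 after quantile normalization, and had no common sign in OVCAR5.

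CLDN12 had opposite signs in COLO205 and OVCAR5. Its ratio was 0.39 in OVCAR5, beside a scatter of 0.220, −0.35 in COLO205, beside 0.276, and −0.12 in HCT116, beside 0.294. CLDN4 ran the other way in the same lines, with −0.35 in OVCAR5 and 0.30 in COLO205, where only the imetelstat array detected it. The lower bound on the COLO205 difference was 1.15-fold after quantile normalization, a log2 value of 0.207 inside the scatter of 0.212. The measured ratio in COLO205 was 0.19 with median scaling and 0.15 without scaling. These were signals near the detection limit. CLDN7 stayed within −0.21 and 0.02 in all 3 lines, each inside the scatter of 0.225 to 0.264, although with median scaling its COLO205 ratio was −0.60, where the median of all genes was −0.26. CLDN1 had a ratio of 0.10 in OVCAR5, the line that expressed it, inside a scatter of 0.210.

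**Figure D3:**
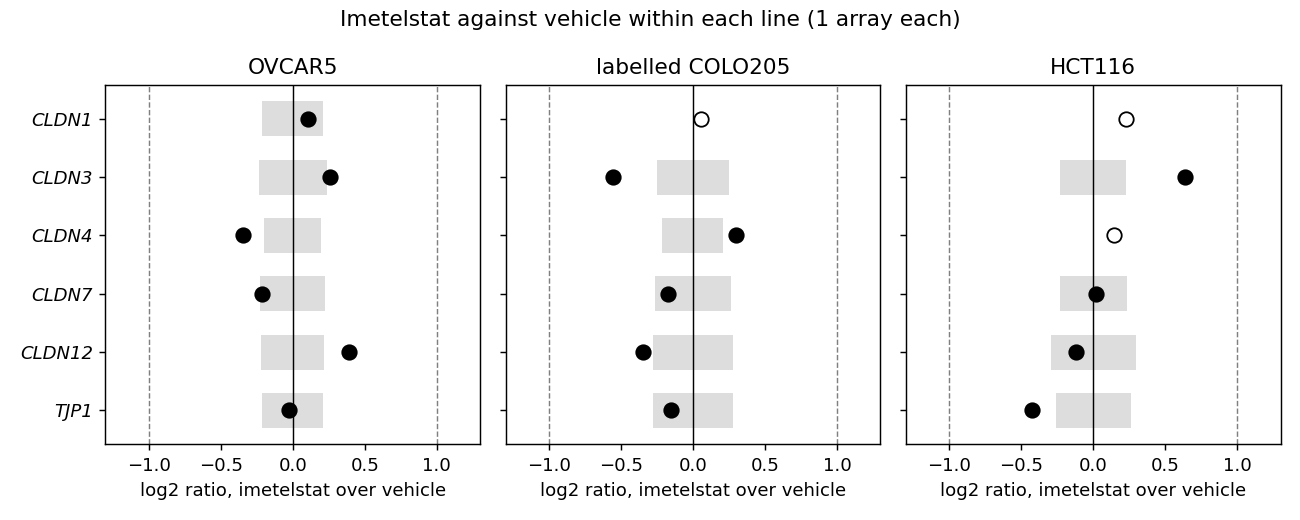
Log2 ratio of imetelstat over vehicle (horizontal axis) for the 6 detected members in each line, 1 array against 1 array. Filled points are members detected in that line, open points are members not detected there, grey bars span the scatter of 500 genes of like signal, and dashed lines mark 2-fold. CLDN3 leaves the grey bar upward in HCT116 and downward in the arrays labelled COLO205, and no point reaches 2-fold.

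The wider set of cell junction genes, 69 in 5 lists, had 45 detected genes. Unlike the members, those called went in both directions. Of the 45, 15 were called higher and 11 lower in OVCAR5 than in HCT116, and 17 higher and 8 lower than in COLO205. These are 57.8% and 55.6% of the 45, beside 41.0% and 41.9% of all genes, and without the COLO205 arrays the counts against HCT116 were again 15 and 11. Over all 12187 genes, 2355 were called higher and 2645 lower than in HCT116, and 2390 and 2711 than in COLO205. CLDN9, CLDN10, JAM3, IGSF5 and PARD6B were called higher in both comparisons but entered the 45 through the OVCAR5 arrays alone. The detection filter fixed their direction, so their calls are no support for it. The differences of the 45 had medians of 0.10 and 0.10 on the log2 scale. The medians of the 6 members were 0.81 and 0.88, and those of all genes −0.04 and −0.04. OVCAR5 was higher than both other lines for 5 of the 6 members and for 14 of the 45 other genes, beside 16.4% of all genes. CLDN1 and the genes named above, detected in OVCAR5 alone, are within these counts. The members are few and were chosen with results of these arrays known, so the contrast is a description.

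Of 16 other claudins, 7 were detected. CLDN10, a claudin with ion-selective pore forms, had log2 signals of 9.81 with imetelstat and 9.75 with vehicle in OVCAR5 and was not detected elsewhere, where it gave 6.61 to 6.88. CLDN11, known from myelin and the testis barrier, had 9.56 with imetelstat and 10.58 with vehicle in OVCAR5, against 6.71 to 7.06 on the other arrays. Both had their highest signals in OVCAR5, as CLDN1 did, and outside that line only CLDN11 was detected, on the HCT116 imetelstat array. The CLDN11 ratio of −1.01 in OVCAR5 made it the only 1 of the 45 other junction genes to reach 2-fold in any line. CLDN10 was at least 6.96-fold higher than in HCT116. CLDN9, likewise detected in OVCAR5 alone, was at least 1.59-fold higher there than in HCT116. CLDN23 differed by 0.66 (adjusted p = 0.0152), while 2 claudins, CLDN15 and CLDN20, were lower in OVCAR5 than in HCT116, by −0.65 and −0.70.

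Among the other membrane proteins of the tight junction 9 of 12 were detected, 2 of them higher and 1 lower in OVCAR5 than in HCT116. Over all genes 41.0% were called in either direction, and the 2 called higher, JAM3 and IGSF5, entered through the OVCAR5 arrays alone. JAM3, a junctional adhesion molecule, read 7.67 with imetelstat and 8.34 with vehicle in OVCAR5, and 6.44 to 6.61 on the other arrays, where it was not detected, which makes it at least 2.04-fold higher than in HCT116. IGSF5, also called JAM4, was likewise detected in OVCAR5 alone, at 7.41 with imetelstat and 7.61 with vehicle. CRB3, the apical polarity protein, was the gene called lower, by −0.67 (adjusted p = 0.0079), and CXADR, the coxsackievirus and adenovirus receptor, did not pass in any line comparison. CXADR had a ratio of 0.72 with imetelstat in OVCAR5, where it read 10.44 with imetelstat and 9.71 with vehicle, beside a scatter of 0.215.

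Of 23 genes of the junctional plaque and of cell polarity, 15 were detected. Of these, 4 were higher and 3 lower in OVCAR5 than in HCT116, beside 41.0% of all genes called in either direction. CGN, which encodes cingulin, a partner of ZO-1, differed by 1.00 (SE 0.191, adjusted p = 0.00193). PALS1, a scaffold of the Crumbs complex, differed by 1.12 (SE 0.156, adjusted p = 0.000259). PARD6B, of the Par complex and detected in OVCAR5 alone, was at least 1.45-fold higher there. In HCT116 CGN shared the direction of TJP1, with 9.10 with imetelstat and 9.66 with vehicle, a ratio of −0.57 beside a scatter of 0.262. CGNL1 of the same list went the other way there, with a ratio of 0.53 beside a scatter of 0.239. Of the 14 genes of the list measured in HCT116, 9 had a ratio above 0. RAB13, a small GTPase of junction traffic, was lower in OVCAR5 by −0.87 (SE 0.151, adjusted p = 0.00102).

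The adherens junction list had 8 of 10 genes detected, 3 higher and 2 lower in OVCAR5 than in HCT116, beside 41.0% of all genes called. CDH1, which encodes E-cadherin, read 12.26 with imetelstat and 12.18 with vehicle in OVCAR5, 10.54 and 10.30 in COLO205 and 10.60 and 10.41 in HCT116. Its difference of 1.72 from HCT116 (SE 0.147, adjusted p = 8.89e-06) was in the same direction as that of CLDN3 and TJP1. CTNND1, which encodes p120-catenin, was higher by 0.59 (adjusted p = 0.00971), and CTNNB1, which encodes beta-catenin, was lower by −0.65 (adjusted p = 0.012). NECTIN3, an adhesion molecule of the adherens junction, read 7.93 and 7.46 in OVCAR5, 10.99 and 10.69 in COLO205 and 8.80 and 9.21 in HCT116. It was the 1 gene among the 45 called between COLO205 and HCT116, with a difference of 1.83 (SE 0.204, adjusted p = 0.00212), and so separates arrays that the claudins did not.

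Desmosomes, the rivet-like contacts tied to keratin filaments, were divided. Of 8 listed genes 6 were detected, and 2 were higher and 3 lower in OVCAR5 than in HCT116, beside 41.0% of all genes called. The desmosomal cadherin DSG2 was lower by −1.29 (SE 0.174, adjusted p = 0.000202), DSC2 by −1.07 (SE 0.186, adjusted p = 0.00108), and DSP, which encodes the linker desmoplakin, by −1.14 (SE 0.151, adjusted p = 0.00018). These 3 were lower than in COLO205 as well. PKP2, which encodes a plakophilin, was higher in OVCAR5 by 0.63 (adjusted p = 0.0108). The heat map of detected junction genes shows CLDN1, CLDN10, CLDN11 and CDH1 high and these desmosomal genes low on the OVCAR5 arrays.

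**Figure D4:**
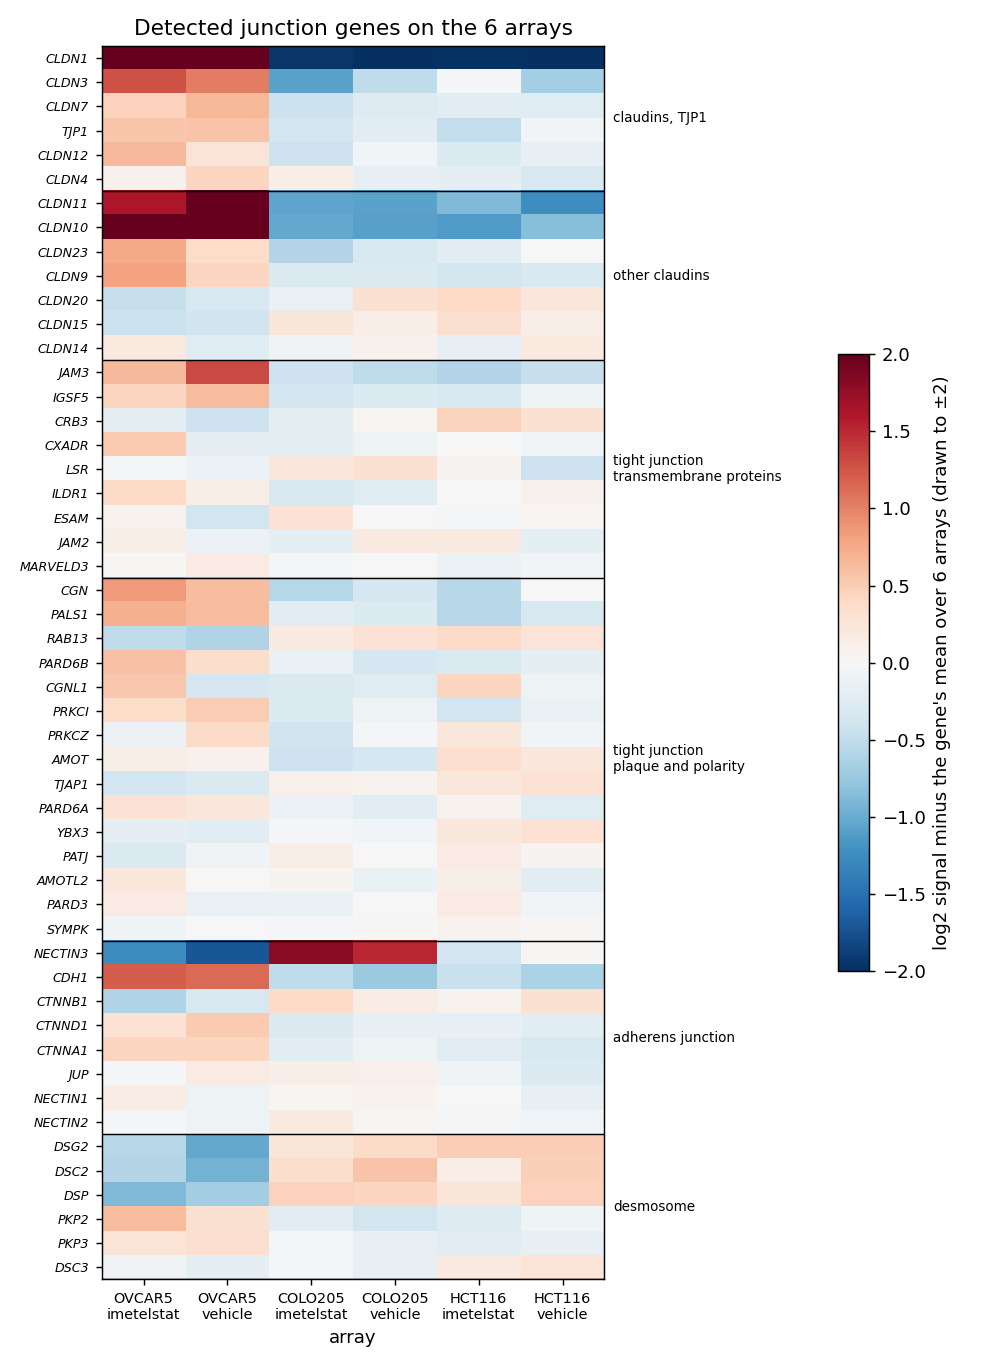
Log2 signal minus the gene's mean over the 6 arrays (colour, drawn to ±2) for the 6 detected members and the 45 other detected junction genes (rows, by list and by range within a list) on each array (columns, imetelstat left of vehicle). Red rows on the OVCAR5 side include CLDN1, CLDN10, CLDN11 and CDH1, blue rows there include DSG2, DSC2 and DSP, and NECTIN3 is highest on the arrays labelled COLO205.

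For the 3 members of widest range, the genes of most similar pattern were found by the root mean square difference of log2 signal over the 6 arrays, after each gene was centred on its own mean. Nearest to CLDN1 was AGR2, a protein disulfide isomerase of secretory epithelium (0.064), followed by TXNIP, the thioredoxin-interacting protein (0.132), and TGFBI, a matrix protein (0.217). Their log2 signals were 12.60 to 13.15 on the OVCAR5 arrays and 6.56 to 7.70 elsewhere. CLDN1 was undetected on those other 4 arrays, and AGR2 and TXNIP lay below the lowest detected signal there, so that the order among the 3 rests partly on background. Nearest to CLDN3 were BLCAP (0.125), SCNN1A, which encodes the alpha subunit of the epithelial sodium channel (0.138), and PRSS8, which encodes the channel-activating protease prostasin (0.147). These 3 had ratios of 0.47, 0.36 and 0.42 in HCT116 and of −0.59, −0.61 and −0.33 in COLO205, so that the opposite signs seen for CLDN3 were seen in them as well, which is part of what the measure selects. Nearest to CLDN7 were PLPP6 (0.028), RAB15 (0.047) and TNKS1BP1 (0.050), where small values are easier to reach because CLDN7 varied by only 1.10. Without the COLO205 arrays CLDN1 kept its 3 nearest genes in another order, whereas all 3 were replaced for CLDN3 (AURKA, MYO1D and SERINC2) and for CLDN7 (COASY, SLC35A4 and DELE1).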

How the data were processed

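The 6 RNA samples were hybridised to Illumina HumanHT-12 V4 BeadChips. The authors deposited GenomeStudio signal intensities averaged over beads, linear and neither scaled between arrays nor background-subtracted. A detection p-value per probe was deposited with them. The authors' processed intensities were quantile-normalized on a linear scale (median 113.6 throughout), while the methods mention a log2 step and lumi without a version. Here the deposited signals were log2-transformed and then quantile-normalized with limma 3.58.1 (R 4.3.3). Symbols came from GEO's platform annotation (30113 of 47231 probes with 1 symbol, 8 with several), updated by gene identifier for 30074 probes. For a gene with several detected probes the brightest was used. A gene's level was compared between arrays only, never with another probe.

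Line differences and imetelstat against vehicle came from 1 additive limma fit (line and agent, empirical Bayes, Benjamini-Hochberg over 12187 genes at 0.05). The pairs are the lines. Within a line no p-value was computed. Genes named were all members, the listed junction genes at least 2-fold different in any line or among the 4 of widest range in their list, and 3 nearest genes for the 3 members of widest range. CLDN15 and CLDN20, as the claudins called lower, and the nearest genes without COLO205 were named after their values were seen. Members, lists and markers were chosen with earlier results of these data known. Alternatives were normexp background correction (offset 16), median or no scaling, the deposited processed table, other filters on detection, other probe rules, each line left out, no line block, a variance trend and looser limits (1.5-fold, adjusted p of 0.1). The likeness of patterns and the counts of other junction genes without COLO205 were added after seeing the data. Promoter windows came from RefSeq (GRCh38.p14). Precision is limited by having 6 arrays. Scripts used Python 3.11.15, numpy 2.4.6, pandas 2.3.3 and matplotlib 3.10.9.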

Additional observations from a re-analysis of the deposited data

Results flagged for a closer look

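In 7 comparisons of a member between a pair of lines the imetelstat ratio had opposite signs, each line having 1 array per treatment. The differences were not tested. For CLDN3 the log2 ratio was 0.639 in HCT116 and −0.553 in COLO205, 1.192 apart, and the COLO205 ratio lay −0.812 from the 0.259 of OVCAR5. For CLDN12 the ratio was −0.348 in COLO205 and 0.392 in OVCAR5, a difference of −0.740, and −0.120 in HCT116, a difference of −0.512 from OVCAR5. For CLDN4 it was 0.296 in COLO205 and −0.346 in OVCAR5, a difference of 0.642, at signals near the detection limit. For CLDN7 the 0.022 of HCT116 lay 0.197 above COLO205 and 0.235 above OVCAR5. In 4 of the 7 both ratios exceeded the scatter of genes of like signal, the exceptions being both CLDN7 pairs and CLDN12 in HCT116 against OVCAR5. The COLO205 imetelstat array had the lowest mean signal of the 6 (359.8), and without scaling between arrays the median ratio of all genes in COLO205 was −0.310. Their part in the differences with COLO205 was not tested.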

How the results depend on the processing

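The direction of the OVCAR5 differences held for all 6 members under every alternative run, with 4 to 7 probes or genes called against HCT116 and 4 to 6 against COLO205. Over all genes or probes, 3913 to 6212 were called against HCT116 and 3838 to 6435 against COLO205, in either direction. CLDN1, detected in OVCAR5 alone, is within the member counts and is no support for them. The 7, and the 6 against COLO205, are counts of probes, with both TJP1 probes entered. CLDN4 against HCT116 lost its call with median scaling, without scaling and without the detection filter (adjusted p 0.0193 to 0.0992 over all alternatives), and CLDN12 with normexp correction, median scaling and no scaling (0.00606 to 0.089). CLDN12 against COLO205 lost it with normexp (adjusted p = 0.0541). Between COLO205 and HCT116 no member was called under any alternative, while 41 to 266 genes were, and the TJP1 difference became 0.068 with the mean of its probes.

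No alternative called a member for imetelstat across lines, and 0 to 13 genes were called in all. With 1 line left out, CLDN3 ranged between −0.147 (without HCT116) and 0.449 (without COLO205), CLDN12 between −0.234 (without OVCAR5) and 0.136 (without COLO205), with 0.022 without HCT116, and CLDN4 between −0.101 (without COLO205) and 0.220 (without OVCAR5), with −0.025 without HCT116. CLDN4 was −0.021 with median scaling and −0.042 without scaling. Without the line as a block no member was called either. The lines themselves are the pairs, so no other pairing was possible. Within lines, a limit of 1.5-fold counted 1 member in HCT116 (CLDN3), and normexp 1 in COLO205 (CLDN3, −1.03). All genes past the size limit numbered 85 to 375 in HCT116, 24 to 406 in COLO205 and 50 to 299 in OVCAR5 over the alternatives. Median scaling and no scaling moved the COLO205 median ratio of all genes to −0.264 and −0.310, and the ratios there to −0.723 and −0.769 for CLDN12, −0.603 and −0.650 for CLDN7 and −0.519 and −0.566 for TJP1. The causes were not tested. Near the detection limit, normexp correction moved the CLDN4 ratio to 0.818 in COLO205 and −0.743 in OVCAR5.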
